A study of Mus musculus with 158 samples.

Results

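Upp1 and Nt5e encode 2 enzymes that break down nucleosides and nucleotides, and each was targeted by 3 short hairpin RNAs (shRNAs) in a knockdown screen for growth in culture and in the lungs. All hairpins whose target is listed as Upp1 or Nt5e were taken, which gave 6 of the 1000 targeting hairpins. The whole library targeted 285 genes in 19 pools. The 3 Upp1 hairpins, TRCN0000190139, TRCN0000190209 and TRCN0000191300, were all in pool 9, which held 52 targeting hairpins. The Nt5e hairpins TRCN0000080814 and TRCN0000080816 were in pool 8, with 52 targeting hairpins, and TRCN0000288305 was in pool 17, with 54. The Upp1 hairpins are therefore compared within 1 pool, whereas the Nt5e hairpins come from 2 separately infected pools.

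Uridine phosphorylase 1, the product of Upp1, splits uridine into uracil and ribose 1-phosphate inside the cell, so that the sugar can enter central carbon metabolism and the base can be salvaged or degraded. Ecto-5′-nucleotidase, the product of Nt5e and also known as CD73, is anchored to the outer cell surface, where it removes the phosphate from AMP and releases adenosine. Extracellular adenosine is known to dampen immune responses through adenosine receptors, and both enzymes have been studied in pancreatic cancer. The sequences of the hairpins are not printed because they were not among the sources used here.

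The cells were PDA530 Met, a mouse pancreatic adenocarcinoma line whose labels describe a liver metastasis. Each pool was introduced by virus at a multiplicity of infection of 0.3, infected cells were selected with puromycin, and the same treatment applied to every group. Day 0 samples were pellets of the selected cells, culture samples were cells kept in vitro for 28 days, and lung samples were the pooled lung tumours of single mice 28 days after tail-vein injection; the sources used here do not give the age, sex or strain of the mice. No unselected or uninfected group was analysed, and a hairpin's knockdown of its target was not measured, because genomic DNA was sequenced.

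In the pools of these hairpins each arm had replicates A, B and C, except that lung replicates A and C alone were analysed for pool 9, so every lung value of Upp1 rests on n = 2 mice. Culture libraries carried the hairpins of more than 1 pool, and their titles do not say at which step the pools were combined. Those named for pools 8 and 9 measured the pool 8 Nt5e hairpins and the Upp1 hairpins together. Those for pools 9 and 10 measured Upp1 again, and those for pools 16 and 17 measured TRCN0000288305. Libraries of the same letter were summed. In the libraries of pools 8, 9 and 17, the total was between 5530029 and 10555387 reads for day 0, between 5601604 and 9321062 for cultures and between 4500424 and 8720796 for lung tumours. Reads of hairpins from pools not named on the library made up 18.75% of lung library 17A and 15.32% of culture library 16/17A, and at most 3.164% of any other library of these pools. The 6 hairpins had 262 or more reads in every library of their pools, and the spread between replicates is given with each result. PCR reads carry no molecular identifiers, and the labels do not say whether the day 0 pellets were infected separately, so p-values measure the spread between these samples.

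Abundance is given in 2 ways for each hairpin. The first is its share of all targeting reads of its pool, in percent, and the second is its level as a multiple of the pool's median targeting hairpin in the same library, which does not move when a few other hairpins expand. Changes are differences of log2(CPM + 1) with TMM scaling (CPM, reads scaled to a fixed total of the targeting reads of the pool), with the standard error (SE) and the Benjamini-Hochberg adjusted p of limma over all tested hairpins of all pools, called at 0.05. All 6 hairpins passed the filter of a mean of 10 reads in each comparison.

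Culture against day 0 asked which knockdowns changed in abundance during growth in vitro. Of the 6 hairpins, 2 were higher in culture, 3 were lower and 1 was not called. Calls were frequent in this comparison, as 62.1% of 945 tested hairpins were called. Of all tested hairpins, 29.4% were called as higher and 32.7% as lower. A call by itself therefore does not set these hairpins apart. Within each gene the hairpins differed in direction. Of the Upp1 hairpins 1 was higher and 1 lower, and of the Nt5e hairpins 1 was higher and 2 were lower. These counts hold with TMM scaling. With libraries scaled to the control hairpins, TRCN0000191300 was no longer called as higher, TRCN0000190139 was called as lower, and 16.3% of all calls were higher, against 47.4% with TMM. That scaling divides the reads of 1 pool by the control reads of all pools named on a library. Day 0 libraries are named for 1 pool. In a culture library, the other pool adds control reads to the divisor and so sets the values lower. The median change of the 6 was -0.86, beside -0.10 over all tested hairpins.

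The Upp1 hairpin TRCN0000190209 was among the more abundant of its pool at the start and fell in culture. Its share was 2.72%, 2.66% and 2.47% in the day 0 replicates and 0.544%, 0.464% and 0.620% in the cultures. All cultures lay below all day 0 samples, and its rank in the pool went from 14 to 18 at day 0 to 31 or 32. Its level was 2.16 ± 0.084 times the pool median at day 0 and 0.609 ± 0.096 times in culture (SD, n = 3 each). The change was -1.70 (SE 0.12, limma adjusted p = 3.52e-07), a 3.25-fold fall that placed it 43rd from the top among 52 hairpins. It was -2.28 with the pool's targeting total and -2.64 with control hairpins, so the size of the fall depended on the scaling and its direction did not. In these cultures the control reads include those of the other pools named on the libraries, which enlarges the fall with control hairpins.

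TRCN0000191300, directed at the same enzyme, rose in the same cultures. Its share was 1.01%, 1.03% and 1.03% at day 0 and 1.46%, 1.42% and 1.46% in culture, with no overlap. Relative to the pool median its level went from 0.843 ± 0.017 to 1.62 ± 0.077 times (SD, n = 3 each). The change was 1.08 (SE 0.097, limma adjusted p = 2.13e-06) and ranked 12th of 52. With libraries scaled to the control hairpins it was 0.14 (adjusted p = 0.371), a scaling that puts the median change of the pool at -1.001. Here too the control reads of the cultures are those of all pools named on the libraries.

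The third Upp1 hairpin, TRCN0000190139, was scarce at day 0 and in culture and was not called. Its share was 0.424%, 0.454% and 0.394% at day 0 and 0.216%, 0.277% and 0.202% in culture. All cultures, summed by letter, lay below the day 0 samples in share and in multiples of the pool median. These multiples were 0.350 ± 0.022 at day 0 and 0.259 ± 0.038 in culture (SD, n = 3 each). Taken alone, culture library 8/9B stood at 0.414 times the pool median, above the 0.329 to 0.373 of day 0. The scaled change was -0.30 (SE 0.20, limma adjusted p = 0.199), at rank 28 of 52. It was called as lower with 4 of 27 alternatives. These were the targeting total (-0.88, adjusted p = 0.00211), control hairpins (-1.24, adjusted p = 8.01e-07), the cultures sequenced in the lane of the day 0 samples alone (-0.82, adjusted p = 0.0209) and the fit without culture replicate B (-0.44, adjusted p = 0.0332). The control reads of the cultures again include those of other pools.

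Pool 9 was measured in 2 sets of culture libraries, one with pool 8 and one with pool 10, and both sets gave the same direction for TRCN0000190209 and TRCN0000191300. The labels do not say whether same-letter libraries of the sets come from 1 culture or from 2. With the sets kept separate the changes were -0.45 for TRCN0000190139, -1.75 for TRCN0000190209 and 1.09 for TRCN0000191300, and the same 2 hairpins were called. TRCN0000190209 had 0.532%, 0.502% and 0.853% in the first run of libraries 8/9A, 8/9B and 8/9C and 0.549%, 0.421% and 0.382% in 9/10A, 9/10B and 9/10C. Each of these lay below every day 0 value. TRCN0000191300 had 1.18%, 1.56% and 1.31% in the first set and 1.94%, 1.27% and 1.61% in the second, each above every day 0 value. TRCN0000190139 had 0.220%, 0.384% and 0.288% in the first set and 0.176%, 0.154% and 0.114% in the second, so every library of its second set was lower than its first. The most abundant hairpin of the second set, TRCN0000183730 against Alms1, held 23.0% to 25.7% of the pool there; it was named after its values were seen.

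The Nt5e hairpin TRCN0000288305 rose most of the 6 in culture. Its share was 6.56%, 6.34% and 6.35% in the day 0 replicates, where it ranked between 1 and 3 of 54, and 21.6%, 22.1% and 22.6% in the cultures, where it was the most abundant hairpin of pool 17 in all 3 libraries. The groups did not overlap, and the cultures differed little from each other. In multiples of the pool median, it stood at 6.97, 6.95 and 6.05 at day 0 and at 48.8, 40.4 and 38.6 in culture. The change was 2.59 (SE 0.11, limma adjusted p = 1.35e-15), a 6.04-fold rise that was the second highest of 54. The size of that p rests in part on a prior of 18.2 degrees of freedom shared over the pool. Across 27 alternatives the change ranged from 1.26 to 2.70 and was called in all 27. Without culture library 16/17A and lung library 17A, it was 2.61.

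Both Nt5e hairpins of pool 8 fell in culture. TRCN0000080816 had 0.882%, 0.870% and 0.891% of the pool at day 0 and 0.297%, 0.0707% and 0.0872% in culture. Its level was 0.618 ± 0.014 times the pool median at day 0 and 0.116 ± 0.094 times in culture (SD, n = 3 each). Culture replicate A was the highest of the cultures and still lay below every day 0 sample. The technical repeat of that culture gave 0.295% against 0.299% in the first run. The change was -2.65 (SE 0.49, limma adjusted p = 0.00168), which placed it 51st of 52, and without culture replicate A it was -3.30 (adjusted p = 1.25e-06).

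TRCN0000080814 was one of the rarest hairpins of pool 8 from the start, at rank 49 of 52 in every day 0 replicate. Its share was 0.0740%, 0.0828% and 0.0700% at day 0 and 0.0306%, 0.0204% and 0.0235% in culture, again with no overlap. Its level was 0.0530 ± 0.0043 times the pool median at day 0 and 0.0192 ± 0.0034 times in culture (SD, n = 3 each). The change was -1.42 (SE 0.23, limma adjusted p = 0.000836), at rank 45 of 52. The call was lost in 1 of 27 alternatives, with all arms in one fit (-1.47, adjusted p = 0.0838). The pool 8 hairpins of Nt5e together held between 0.953% and 0.961% of the pool at day 0 and between 0.0911% and 0.328% in culture, while the share of the pool 17 hairpin of the same gene rose.

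Lungs against day 0 asked which knockdowns changed in abundance in tumours that formed after tail-vein injection. Of the 6 hairpins, 1 was called as higher, 2 as lower and 3 were not called. Over 891 tested hairpins 33.8% were called, 14.7% as higher and 19.1% as lower. The median change of the 6 was 0.52, beside -0.13 over all tested hairpins. A hairpin that is rarer in lung DNA may have been in fewer cells that seeded, or in cells that grew less, and these cannot be told apart here.

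TRCN0000190209, the Upp1 hairpin that fell in culture, was high in both lung libraries relative to the other hairpins of pool 9. Its share was 3.78% in lung replicate A and 2.42% in lung replicate C, so in share 1 lung library lay above and 1 below all day 0 values. In multiples of the pool median the lungs stood at 4.04 and 4.60, above the 2.07 to 2.23 of day 0, and its rank was 8 and 10 against 14 to 18. The change was 1.20 (SE 0.14, limma adjusted p = 0.00538, n = 2 lungs and 3 day 0 samples), at rank 14 of 52. With 2 lung libraries and a single spread assumed for both arms, p-values of pool 9 in lung comparisons are probably too small. This call also depended on the scaling. With the pool's targeting total it was 0.21 (adjusted p = 0.533), with control hairpins 0.37 (adjusted p = 0.356) and with the deposited values 0.29 (adjusted p = 0.428). The reads of pool 9 were concentrated in lungs, where the top 3 hairpins held 28.3% and 46.7% against 16.9% to 18.1% at day 0. The median change of the pool was -0.35 with TMM and -1.33 with the targeting total, so the rise is one relative to the bulk of the pool.

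The other Upp1 hairpins differed between the 2 lung libraries in opposite ways. TRCN0000190139 had 0.286% in lung A and 0.538% in lung C, or 0.306 and 1.02 times the pool median, against 0.329 to 0.373 times at day 0. Lung A lay below and lung C above the day 0 samples, and the change of 0.88 (SE 0.62, limma adjusted p = 0.340) was not called. TRCN0000191300 had 1.83% in lung A and 0.522% in lung C, or 1.95 and 0.994 times the pool median, against 0.825 to 0.858 times at day 0. Both lungs lay above day 0 in multiples of the pool median, by unequal amounts, and the change of 0.92 (SE 0.32, limma adjusted p = 0.0956) was not called. DESeq2 called it (0.99, adjusted p = 0.0230). With a single lung library, whose spread is then assumed from the other arm, limma called both hairpins without lung A, at 1.78 for TRCN0000190139 and 0.47 for TRCN0000191300, whereas without lung C they stood at -0.076, which was not called, and 1.33, which was. Together the Upp1 hairpins held 3.89% to 4.15% of the pool at day 0, 2.17% to 2.28% in culture, and 5.89% and 3.48% in the lungs.

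The pool 8 hairpins against Nt5e were lower in lungs than at day 0. TRCN0000080816 had 0.105%, 0.340% and 0.254% in lungs A, B and C, each below the lowest day 0 share of 0.870%, and its lung level was 0.156 ± 0.073 times the pool median (SD, n = 3). The change was -1.88 (SE 0.45, limma adjusted p = 0.0152), at rank 46 of 52. TRCN0000080814 had 0.00548%, 0.0403% and 0.010% in the lungs, each below the day 0 minimum of 0.0700%, with lung B the highest, and its lung level was 0.0120 ± 0.011 times the pool median (SD, n = 3). Its change was -2.33 (SE 0.66, limma adjusted p = 0.0285), at rank 49 of 52. Both calls were close to the threshold: without any 1 of the day 0 replicates the adjusted p rose to between 0.0690 and 0.0992, with changes between -1.86 and -2.40. TRCN0000080814 was also not called by edgeR (-1.90, adjusted p = 0.0625), by DESeq2 (-1.90, adjusted p = 0.0707), without lung replicate A (-1.75, adjusted p = 0.0698) or without lung replicate C (-2.21, adjusted p = 0.0903). Without lung replicate B, its highest lung, the change was -3.11 (adjusted p = 0.00261).

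TRCN0000288305 did not repeat its culture rise in the lungs. Its share was 2.76%, 6.95% and 4.95% in lungs A, B and C, at ranks 9, 6 and 7 of 54, around the 6.34% to 6.56% of day 0. In multiples of the pool median the lungs stood at 8.49, 13.1 and 8.73, all above the day 0 values. The scaled change was 0.17 (SE 0.35, limma adjusted p = 0.745) and its sign followed the scaling, at -0.49 with the targeting total, -0.52 with control hairpins and -0.53 with the deposited values.

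Lungs against culture tested directly whether a hairpin's change from day 0 differed between the 28-day arms. Of the 6 hairpins, 1 was higher in lungs, 1 was lower and 4 were not called. Over 889 tested hairpins 23.6% were called, 11.2% as higher and 12.4% as lower. The median change of the 6 was 0.17, beside -0.10 over all tested hairpins. This comparison shares the lung and the culture samples with the others and is not separate evidence.

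The called hairpins were the Upp1 hairpin TRCN0000190209 and the Nt5e hairpin TRCN0000288305, in opposite directions. TRCN0000190209 was 5.91-fold more abundant in lungs than in culture, at 2.56 (SE 0.22, limma adjusted p = 0.00062), the third highest of the 52 hairpins of pool 9. Its lung values of 4.04 and 4.60 times the pool median lay above the culture values of 0.503 to 0.689 times. It was called in all 28 alternatives, with changes from 1.98 to 3.01. TRCN0000288305 was 5.21-fold less abundant in lungs than in culture, at -2.38 (SE 0.48, limma adjusted p = 0.00168), 50th of the 54 hairpins of pool 17. Its lung shares of 2.76% to 6.95% all lay below its culture shares of 21.6% to 22.6%. It was called in 27 of 28 alternatives, and scaling to control hairpins gave -1.78 (adjusted p = 0.0571). In the cultures that scaling counts the control reads of pools 16 and 17. In the lungs it counts those of libraries named for pool 17 alone, so the arms are not scaled alike. Without lung library 17A and culture library 16/17A the change of TRCN0000288305 was -2.26 (adjusted p = 0.00140).

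The remaining members showed no called difference between lungs and culture. TRCN0000190139 stood at 0.85 (SE 0.72, limma adjusted p = 0.433) and TRCN0000191300 at -0.49 (SE 0.29, limma adjusted p = 0.268), each with only 2 lung libraries. Without lung A, which leaves 1 lung library whose spread is then assumed from the other arm, these became 1.78 and -0.92 and both were called, and without lung C they stood at 0.058 (adjusted p = 0.937) and 0.075 (adjusted p = 0.804), so each rests on which mouse is kept. The Nt5e hairpins of pool 8 stood at -0.83 (SE 0.85, limma adjusted p = 0.493) for TRCN0000080814 and 0.84 (SE 0.72, limma adjusted p = 0.414) for TRCN0000080816. Each value was close to its SE in size, neither was called in any of 28 alternatives, and without a single lung library the first ran from -1.51 to -0.25. Their lung and culture shares overlapped.

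Agreement between hairpins of a gene was then described by Pearson's r of log2(CPM + 1) over the libraries of a pool, which share arms and depth. TRCN0000080814 and TRCN0000080816 against Nt5e had r = 0.74 over 9 libraries, and TRCN0000093899 against Wbscr17 was among the closest profiles of both, at 0.74 and 0.89. Among the Upp1 hairpins r over 8 libraries was 0.60 for TRCN0000190139 with TRCN0000190209, -0.52 for TRCN0000190139 with TRCN0000191300, and -0.56 for TRCN0000190209 with TRCN0000191300. The profile most like TRCN0000190209 was that of TRCN0000071339 against Rif1 (r = 0.96), followed by TRCN0000077451 against Rsad2 (0.91). TRCN0000190139 was most like TRCN0000071341 against Rif1 (0.77) and TRCN0000070098 against Slc37a2 (0.76), and TRCN0000191300 was most like TRCN0000175905 against Vgll4 (0.80) and TRCN0000124225 against Tmem45b (0.76). For TRCN0000288305 the closest profiles over 9 libraries were TRCN0000218037 against Nav3 (0.84) and TRCN0000250010 against Lrrtm4 (0.81), and for TRCN0000080816 the second closest was TRCN0000097985 against Timeless (0.84).

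Few other nucleoside and nucleotide genes were in the library. Of a list of 109 enzymes, transporters and adenosine receptors, 2 genes were targeted, by 7 hairpins: Cad, the enzyme that starts pyrimidine synthesis, and Rrm1, the large subunit of ribonucleotide reductase. In culture 1 of the 7 rose and 3 fell against day 0, where 62.1% of all tested hairpins were called, and their median change was -0.75. In lungs against day 0, 1 fell and none rose, beside 33.8% called over all hairpins, with a median of -0.64. In lungs against culture 1 was higher and none lower, beside 23.6% called over all hairpins, although the median of the 7 was -1.16. The 3 Cad hairpins differed from one another. TRCN0000317952 was lower in culture than at day 0 (-0.99, limma adjusted p = 0.0107, called in 26 of 27 alternatives and lost at 0.0588 with all arms in one fit). It was higher in lungs than in culture (1.49, limma adjusted p = 0.0337, called in 21 of 28 alternatives, and 1.04 with 0.143 without lung replicate B) and stood at 0.54 in lungs against day 0 (limma adjusted p = 0.345). TRCN0000314234, in the same pool, stood at 0.35 in culture against day 0, -1.34 in lungs against culture and -0.96 in lungs against day 0, none of them called. In culture it was called as higher in 1 of 27 alternatives, without culture replicate D, and as lower in 2, with control hairpins and with the deposited values, and in lungs against culture as lower in 1 of 28, without culture replicate D (-1.66, adjusted p = 0.0153). TRCN0000032550 was not called at -0.60, 0.31 and -0.37 in the same order of comparisons, and was called as lower in culture in 1 of 27 alternatives, without culture replicate C (-1.49, adjusted p = 0.0111), and in lungs against day 0 in 1 of 26, by DESeq2 (-0.37, adjusted p = 0.0296).

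The 4 Rrm1 hairpins were in pool 6, whose lung libraries stood apart: 6A had 58189 reads and 6B 358742, and control hairpins took up 74.39% of 6C. In culture, TRCN0000042397 was lower (-0.76, limma adjusted p = 2.49e-05, called in all 27 alternatives). TRCN0000042396 was higher (0.89, limma adjusted p = 0.000345, called in 25 of 27), but stood at -0.12 with control hairpins and 0.16 with the deposited values. TRCN0000042395 was lower in culture (-0.86, limma adjusted p = 0.0269) in 21 of 27 alternatives. That call was lost with all arms in one fit (adjusted p = 0.255), without any 1 of the day 0 replicates, and without culture replicate B or C. In lungs it was lower than at day 0 (-2.16, limma adjusted p = 0.0227) in 21 of 26 alternatives. The lung value was -2.81 (adjusted p = 0.0101) without lung library 6A, -2.26 (adjusted p = 0.0539) without lung replicate C, and not called without any 1 of the day 0 replicates. TRCN0000042394 was not called, at -0.75 in culture and -3.63 (SE 1.37, limma adjusted p = 0.0684) in lungs against day 0. Its culture value was -2.29 (adjusted p = 0.00218) without culture replicate A, 0.060 without B and -0.0028 without C, and its lung value was called in 6 of 26 alternatives, among them the one without lung library 6A (-5.34, adjusted p = 0.00429).

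The 8 control hairpins of each pool were measured in the same libraries. Relative to the median targeting hairpin of the pool, their median log2 change from day 0 to lungs was -1.89 in pool 8 (range -5.20 to 1.36), -1.22 in pool 9 (range -6.20 to 2.24) and 0.43 in pool 17 (range -5.65 to 2.83). As multiples of the same median, the linear lung to day 0 ratios of mean level for the 6 Upp1 and Nt5e hairpins ran from 0.227 to 2.00, inside the range of the controls of each pool. These ranges are the extremes of 8 hairpins and are wide, so lying inside them says little about the members. The control values are differences of mean log2 levels, a measure unlike the ratios of mean level. Whether the control hairpins are neutral was not tested.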

How the data were processed

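Hairpins were amplified from genomic DNA and sequenced. The deposited value per hairpin is a read signal that the authors had normalised; BWA 0.5.9 is named in the submitters' processing notes, and the sources used here do not give the counting steps or the genome build. Each deposited signal was divided by the smallest in its library, taken as 1 read: 27241 of 27241 values were whole within 0.01 reads (100%). Hairpins without a row were taken as 0. All values of 10 of 158 samples were missing, none in pools 8, 9 or 17.

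Groups, pools and letters came from sample titles. Technical repeats and same-letter cultures of a pool were summed, since the labels describe triplicate cultures, although they do not say whether same-letter libraries share a culture. Because the unit is a signal, limma 3.58.1 (R 4.3.3; trend, robust) was the main test, on log2(CPM + 1) of each pool's targeting reads with TMM factors of edgeR 4.0.16, per pool, with the compared arms alone and a minimum mean of 10 reads. One spread per hairpin is assumed for both arms, although lungs varied more; on simulated data with each arm's own spread, false calls exceeded the intended share in lungs, and with no hairpin changed, small p-values were more frequent in pools with 2 lung libraries, such as pool 9, than with 3. On the recovered reads edgeR's quasi-likelihood test called 567 hairpins for culture against day 0, 279 for lungs against day 0 and 213 for lungs against culture, and DESeq2 1.42.0 called 601, 381 and 267.

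Named hairpins were all those against Upp1, Nt5e and a list of 109 nucleoside genes, plus the 2 profiles most like each member; 1 further hairpin is marked as chosen after its values were seen. The members and lists were chosen with earlier results of these data known. Letters were checked for pairing: in pools 8, 9 and 17 deviations of same-letter culture and day 0 samples correlated above 0.1 in 9 of 9 pairs (0.101 to 0.860), those of lungs and day 0 in 1 of 8 and of lungs and culture in 2 of 8. Over all pools it was 28 of 53 for culture and day 0. The main fit was set without a block. Alternatives were other scalings, tools, pseudocounts, filters, groupings of cultures, a replicate block and leaving out replicates.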

Additional observations from a re-analysis of the deposited data

Results flagged for a closer look

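The Upp1 hairpin TRCN0000190209 and the Nt5e hairpin TRCN0000288305 changed differently from day 0 in lungs and in culture, by 2.56 and -2.38 on the log2 scale (limma adjusted p = 0.00062 and 0.00168). Of the 6 culture libraries of pool 9, 8/9C stood apart from the others for TRCN0000190209, at 0.853% of the pool, in 1 of 3 such groups examined; chance alone sets 1 library apart in about 5% of groups.

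Member hairpins also had reads in libraries of pools that do not carry them. TRCN0000288305 had reads in 24 of 139 such libraries, with up to 20403 in culture library 18/19A, which is 0.263% of that library. In that library 37 hairpins of pool 17 had 28044 reads in all, and TRCN0000288305 was the most abundant of them. It made up 72.8% of these pool 17 reads, against 21.6% to 22.6% in the cultures of pool 17. The source of these reads was not tested. The Upp1 hairpins TRCN0000190139, TRCN0000190209 and TRCN0000191300 had reads in 14, 30 and 34 of 136 such libraries, with at most 41 reads in lung library 4A, 402 in day 0 library 15C and 336 in the same day 0 library. The pool 8 hairpins of Nt5e had none in 136 libraries.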

How the results depend on the processing

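The direction of the lung change against day 0 depended on the scaling for 3 of the 6 hairpins, whereas TRCN0000190209, TRCN0000080814 and TRCN0000080816 kept theirs. With the pool's targeting total the change was -0.11 for TRCN0000190139, -0.063 for TRCN0000191300 and -0.49 for TRCN0000288305. With control hairpins TRCN0000288305 was at -0.52, and with the deposited values it was at -0.53 and TRCN0000190139 at -0.028. Leaving out 1 replicate in turn gave -0.076 to 1.78 for TRCN0000190139 and -0.12 to 0.43 for TRCN0000288305 in lungs against day 0, and -0.92 to 0.075 for TRCN0000191300 in lungs against culture. It gave 148 to 388 called hairpins in all and 1 to 4 of the 6 for lungs against day 0, and 134 to 268 in all and 2 to 4 of the 6 for lungs against culture. With all arms in one fit 355 hairpins were called for culture against day 0, and with control hairpins 1 of the 6 was called for lungs against culture. The share of calls that were higher was 47.4% for culture against day 0, 26.9% with the targeting total, 16.3% with control hairpins and 20.7% with the deposited values. For lungs against day 0 it was 43.5%, 24.4%, 45.8% and 30.5%, and 55.6% with the median targeting hairpin, a scaling chosen after seeing the data. For lungs against culture it was 47.6%, 45.5%, 83.9% and 62.6%. With a replicate block 592, 231 and 189 hairpins were called for culture against day 0, lungs against day 0 and lungs against culture, and 5, 2 and 2 of the 6; TRCN0000190209 in lungs against day 0 had 1.20 (adjusted p = 0.0812) and no other call of the 6 changed. With control hairpins the culture changes were -2.64 for TRCN0000190209, -3.41 for TRCN0000080816, -2.18 for TRCN0000080814 and 1.26 for TRCN0000288305, all still called. Scaling to control hairpins uses the control reads of all pools named on a library. Most culture libraries are named for more pools than the day 0 and lung libraries. Culture values with this scaling are therefore not like for like with those of the other arms. Beyond this, the causes of these shifts were not tested.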
